A study of Mus musculus with 8 samples.

Results

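The solute carrier genes that move amino acids across membranes were compared between mouse bone marrow-derived macrophages cultured without serine and glycine and macrophages in normal medium. The members are all genes of the deposited table whose symbol belongs to the families Slc1, Slc3, Slc6, Slc7, Slc15, Slc32, Slc36, Slc38 and Slc43. The table holds 17492 genes. Its matches numbered 60, of which 59 were kept after Slc7a6os, a neighbour of Slc7a6 named for its opposite strand, was dropped. The rule reads the symbol alone. Bone marrow-derived macrophages are grown in culture from marrow precursors, here of C57BL/6 mice. RNA was sequenced in 4 libraries of the serine/glycine-free group (labelled NSG) and 4 of the control group (labelled SG, untreated). No genetic change is given for either group. The labels do not give the duration of withdrawal or any stimulus. Nor do they say whether libraries came from separate cultures or animals, so p-values reflect no more than the spread among these 8 libraries, part or all of which may be technical.

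Amino acids enter cells through carriers that differ in substrate and in driving force. Sodium-coupled carriers such as Slc38a1 and Slc38a2 accumulate their substrates, whereas Slc1a5 and most Slc7 carriers exchange an amino acid inside for another outside. The Slc7 light chains reach the surface as partners of a heavy chain, mainly that encoded by Slc3a2, also known as CD98. Slc15a3, Slc15a4, Slc36a1 and some Slc38 carriers are found on lysosomes or endosomes, where they pass peptides or amino acids to the cytosol, whereas Slc15a1 and Slc15a2 import peptides at the cell surface. In macrophages, cystine import through Slc7a11 feeds glutathione synthesis and arginine import feeds nitric oxide synthase and arginase.

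Library totals lay between 17565291 and 18201599 estimated counts, so that 3 counts in a library correspond to 0.164 to 0.171 CPM (counts scaled by library size and TMM factor), counting error only. The 8 macrophage markers were all expressed, with summed levels of 18900 to 19170 CPM in serine/glycine-free and 18920 to 19370 CPM in control libraries. Of the macrophage markers 4 rose and 4 fell, so 100% passed an adjusted p of 0.05, against 33.2% of all tested genes. The near-equal sums thus hide changes within the list. Csf1r (log2 change 0.41), Cd68 (0.29), Mertk (0.28) and Lyz2 (0.13) rose. Itgam (-0.61), Adgre1 (-0.25), Fcgr1 (-0.14) and Cd14 (-0.085) fell. Summed CPM was 1.94 to 2.34 in serine/glycine-free and 0.772 to 1.17 in control libraries for 7 neutrophil markers, of which 5 never exceeded 3 counts and S100a8 gave most of the sum (mean 1.87 CPM in serine/glycine-free and 0.755 CPM in control libraries). It was 32.2 to 38.9 in serine/glycine-free and 43.4 to 51.2 in control libraries for 6 lymphocyte markers, nearly all of it Cd79b. For 6 osteoclast markers, nearly all of it Acp5, it was 177 to 185 in serine/glycine-free and 179 to 189 in control libraries. Acp5 fell (log2 change -0.093), whereas Atp6v0d2 averaged 11.98 ± 1.11 CPM in serine/glycine-free and 7.71 ± 0.778 CPM in control libraries and rose (0.63, adjusted p = 8.86e-08), as did the low Ctsk (0.65, adjusted p = 0.0452). The 6 fibroblast markers summed to 1.10 to 1.66 CPM in serine/glycine-free and 0.895 to 1.12 CPM in control libraries, and the 4 dendritic cell markers to 1.11 to 1.77 in serine/glycine-free and 1.10 to 1.74 in control libraries. The deposited table has no row for the lymphocyte marker Cd3g or the dendritic cell marker Cd209a, which were left out. No marker counted here was at 0 in all libraries, as held for 17448 of the 17492 genes by rounded counts. The part of the macrophage, neutrophil, lymphocyte and osteoclast marker differences in the results was not tested.

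Without serine and glycine, the transporter genes did not move as a block. Transcripts of the heavy chain Slc3a2, the neutral amino acid exchanger Slc7a8, the cystine importer Slc7a11 and the creatine carrier Slc6a8 rose by 1.30 to 1.81-fold. Transcripts of Slc1a5, Slc38a1 and Slc7a1, known importers of serine, glutamine and arginine at the cell surface, fell slightly, with those of the light chains Slc7a5 and Slc7a7. Of the 59 members, 29 had enough counts to be tested, and among them 9 rose, 6 fell, and the other 14 did not pass (edgeR quasi-likelihood test, adjusted p under 0.05 over 11700 genes). That is 51.7% of the tested members, against 33.2% of all genes tested (15.9% higher, 17.3% lower). At a mean level of 5 CPM or more, 15 of 23 members passed (9 higher, 6 lower), against 36% of genes (16.2% higher, 19.8% lower). Libraries of the groups did not overlap for 16 tested members, 10 higher and 6 lower, against 30.6% of all tested genes (14.5% higher, 16.2% lower). The 10 include the low Slc7a2, which did not pass and had enough counts to be tested only through the serine/glycine-free group. At least 1.2-fold, 5 members rose and 0 fell, against 6.97% and 4.99% of all tested genes. The median log2 change (serine/glycine-free over control) was 0.017 over the tested members and 0.0074 over all tested genes, and the median size of change 0.17 and 0.10. These are transcript levels in bulk RNA, where fewer cells with a transcript and less transcript per cell cannot be told apart.

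**Figure D1:**
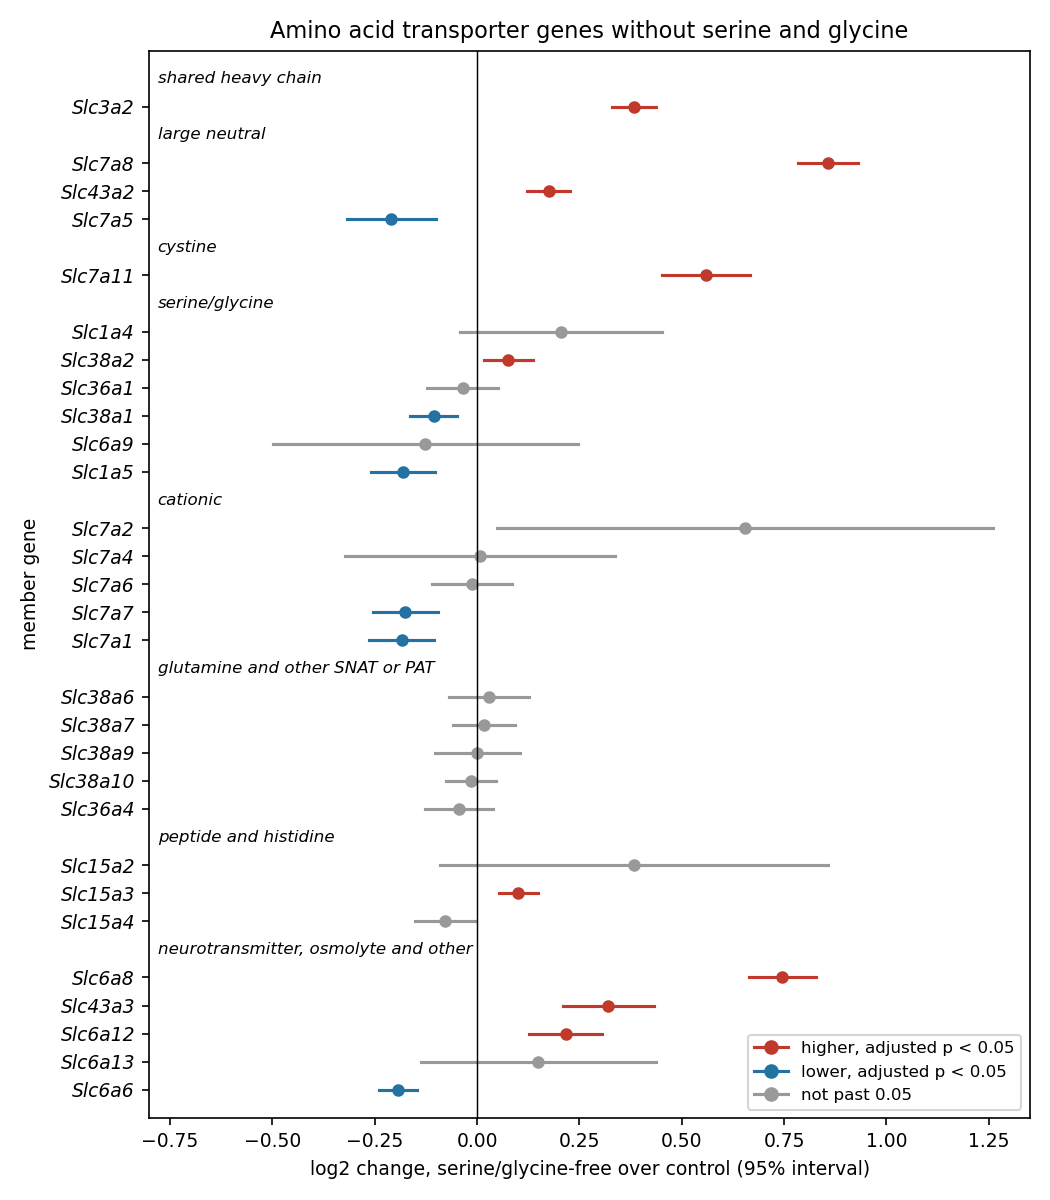
Log2 change of each tested member, serine/glycine-free over control, with its 95% interval from the edgeR fit of 4 libraries against 4, grouped by substrate. Slc7a8 (0.86), Slc6a8 (0.75), Slc7a11 (0.56) and Slc3a2 (0.38) lie farthest to the right among the members that passed, and the 6 that fell lie between -0.21 and -0.11.

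Levels between genes were compared as TPM, the authors' transcript abundance, which allow for gene length. The pool was dominated by carriers of lysosomes and osmolytes. Slc15a3, a lysosomal histidine and peptide carrier, held 30.2% of the summed TPM of all members in serine/glycine-free and 30.1% in control macrophages. The taurine carrier gene Slc6a6 came next in both groups, at 260 ± 9.23 TPM in serine/glycine-free and 302 ± 7.14 TPM in control macrophages (SD, n = 4), followed by Slc3a2 at 247 ± 4.88 TPM in serine/glycine-free and 193 ± 5.61 TPM in control macrophages. The fourth, Slc43a2, stood far lower at 98.2 ± 3.85 TPM in serine/glycine-free and 88.8 ± 3.35 TPM in control macrophages. Slc7a11 had only 6.75 ± 0.310 TPM in serine/glycine-free and 4.68 ± 0.336 TPM in control macrophages. By substrate, large neutral carriers took 10.8% of the pool in serine/glycine-free and 8.99% in control macrophages. Serine and glycine carriers took 8.21% in serine/glycine-free and 9.07% in control macrophages, and with Slc7a8, which is placed under large neutral but also carries both, 12.3% in serine/glycine-free and 11.5% in control macrophages. Members grouped here as cationic carriers took 4.78% in serine/glycine-free and 5.59% in control macrophages. Cystine carriers took 0.392% in serine/glycine-free and 0.285% in control macrophages.

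**Figure D2:**
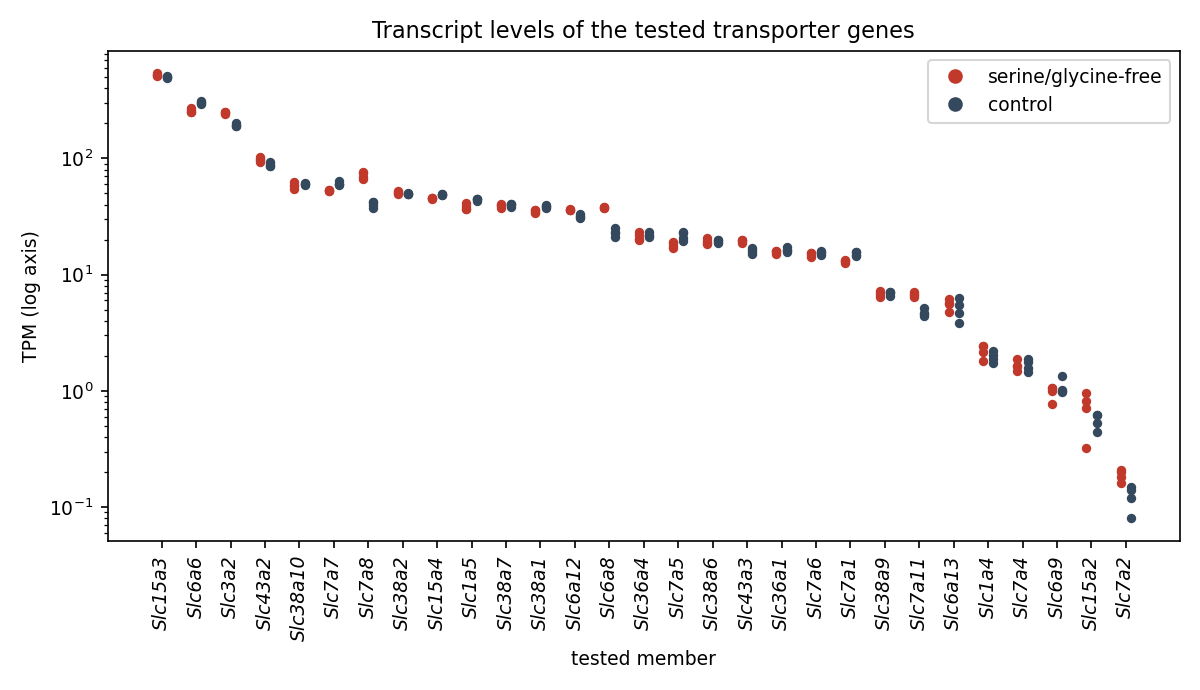
TPM of the 29 tested members in each library (log axis), ordered by their mean, with serine/glycine-free libraries left of control libraries at each gene. Levels run from over 500 TPM for Slc15a3 down to 0.188 TPM for Slc7a2 in serine/glycine-free and 0.123 TPM in control macrophages, and the groups separate clearly for Slc3a2, Slc7a8, Slc6a8 and Slc7a11.

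Slc3a2 (Entrez 17254, chromosome 19, 8706882 to 8723369 on GRCm38.p6) encodes the heavy chain that carries several Slc7 light chains to the surface, among them Slc7a10, which was not analysed here. Slc3a2 had 305, 296, 296 and 315 CPM in serine/glycine-free libraries, against 232, 236, 229 and 233 CPM in control libraries. The groups did not overlap, and the log2 change was 0.38 (SE 0.0266, adjusted p = 7.98e-16). Its estimated counts were not whole in any library, and reads shared with other loci may have been split by the authors' counting.

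Slc7a8 (Entrez 50934, chromosome 14, 54722215 to 54781886), which exchanges large and small neutral amino acids, serine and glycine among them, had the largest change of the members that passed. It had 147, 147, 135 and 141 CPM in serine/glycine-free libraries, against 82.5, 81.6, 76.1 and 74.0 CPM in control libraries. Every serine/glycine-free library stood above every control library (log2 change 0.86, SE 0.0360, adjusted p = 1.05e-21). Slc7a11 (Entrez 26570, chromosome 3, 50364936 to 50499087), which imports cystine in exchange for glutamate, had 36.2, 33.5, 34.3 and 33.3 CPM in serine/glycine-free libraries, against 22.1, 22.4, 22.9 and 25.8 CPM in control libraries. The groups were again apart, with a log2 change of 0.56 (SE 0.0532, adjusted p = 1.03e-11).

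Of the other 3 measured light chains, Slc7a5 and Slc7a7 fell and Slc7a6 did not pass. Slc7a5, which exchanges large neutral amino acids for glutamine, had 33.2, 35.6, 32.2 and 36.7 CPM in serine/glycine-free libraries, against 42.4, 42.6, 37.9 and 36.1 CPM in control libraries. The lowest control library lay within the range of the serine/glycine-free group, and the fall passed the test (log2 change -0.21, SE 0.0533, adjusted p = 0.00222). Slc7a7, which exports cationic amino acids in exchange for neutral ones, had 56.4, 55.4, 56.5 and 58.1 CPM in serine/glycine-free libraries, against 67.9, 62.5, 62.6 and 62.4 CPM in control libraries. It fell without overlap (log2 change -0.17, SE 0.0390, adjusted p = 0.000399), with control replicate 1 above the other 3 control libraries and non-whole counts in 6 of 8 libraries. Its relative Slc7a6 had 29.99, 30.4, 31.35 and 29.4 CPM in serine/glycine-free libraries, against 29.5, 30.5, 31.4 and 30.9 CPM in control libraries. The groups overlapped, and it did not pass (log2 change -0.013, 95% interval -0.11 to 0.085, adjusted p = 0.871).

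**Figure D3:**
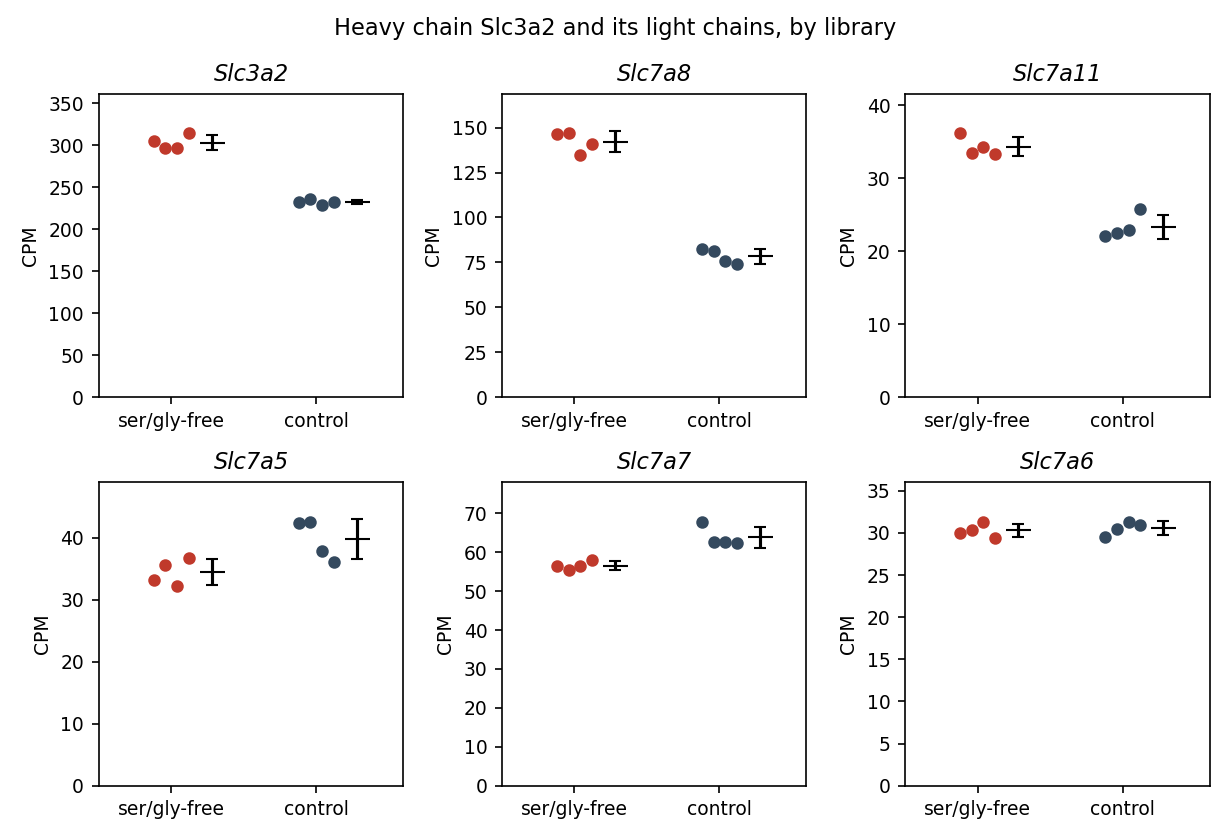
CPM of Slc3a2 and its 5 measured light chains in each library (points), with mean and SD beside them, serine/glycine-free left and control right, each axis starting at 0. Slc3a2, Slc7a8 and Slc7a11 are higher in all 4 serine/glycine-free libraries, Slc7a7 is lower in all 4, Slc7a5 overlaps in 1 control library and Slc7a6 averages 30.3 CPM in serine/glycine-free and 30.6 CPM in control libraries.

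The make-up of the light chain transcripts is given as a description, with no test. Slc7a8 held 43.5% ± 1.32 of the summed TPM of Slc7a5, Slc7a6, Slc7a7, Slc7a8 and Slc7a11 in serine/glycine-free and 28.1% ± 0.661 in control macrophages (SD, n = 4). Slc7a7 held 32.3% ± 1.04 in serine/glycine-free and 42.7% ± 0.914 in control macrophages. The leading light chain was thus Slc7a8 in every serine/glycine-free library and Slc7a7 in every control library. Slc7a5 held 11.04% ± 0.547 in serine/glycine-free and 15.03% ± 0.735 in control macrophages, and Slc7a11 4.10% ± 0.171 in serine/glycine-free and 3.29% ± 0.353 in control macrophages. The light chains summed to 165 ± 4.96 TPM in serine/glycine-free and 142.5 ± 4.98 TPM in control macrophages. The ratio of Slc3a2 to that sum was 1.496, 1.44, 1.52 and 1.555 in serine/glycine-free libraries, against 1.285, 1.39, 1.36 and 1.39 in control libraries, so the heavy chain was higher relative to its light chains in all 4 serine/glycine-free libraries.

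**Figure D4:**
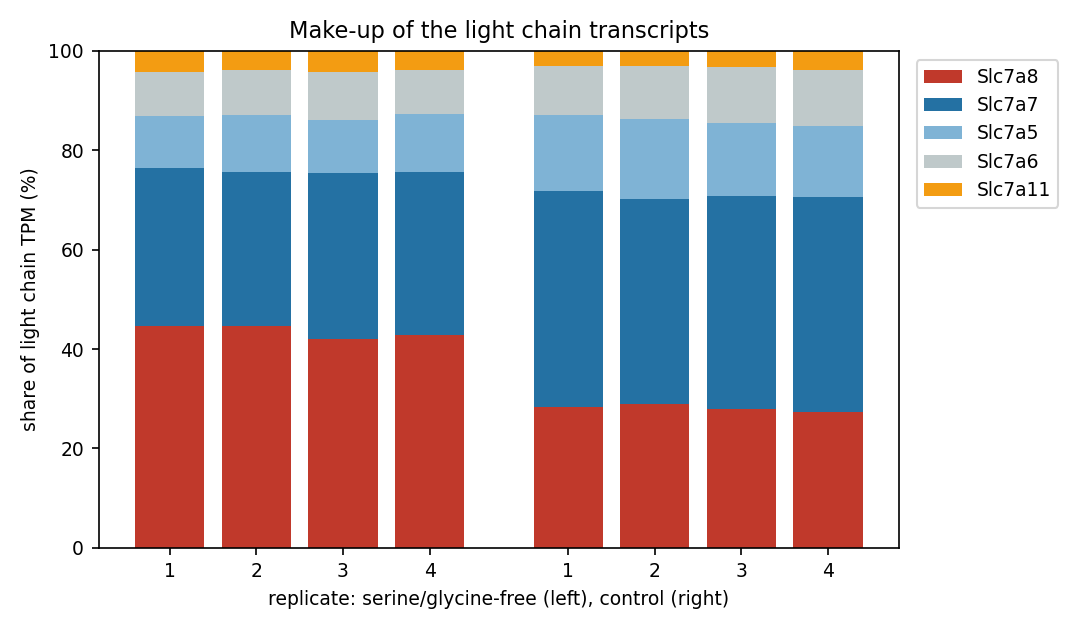
Share of each light chain in the summed TPM of the 5 light chains, in percent, stacked for each library, with the 4 serine/glycine-free libraries left and the 4 control libraries right. The Slc7a8 share lies between 42.1% and 44.65% in the serine/glycine-free libraries and between 27.4% and 28.9% in the control libraries.

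Slc7a11, Slc7a8 and Slc7a7 are separate partners of the same heavy chain and moved in different directions. No promoter was listed for Slc7a5, the other light chain that fell. The promoters of the heavy chain, of both risen light chains and of Slc7a7, which fell, are shown. Each is the 250 bases before a RefSeq start on GRCm38.p6, read on the gene's strand, in lower case. Capitals mark TGATGNAA, the core of the element bound by ATF4 with C/EBP partners, searched on both strands. The regions are chr3:50443614-50443863 for Slc7a11, chr14:54781887-54782136 for Slc7a8, chr19:8713898-8714147 for Slc3a2 and chr14:54417703-54417952 for 1 of the 5 listed starts of Slc7a7, chosen as it holds the element, all on the minus strand.
Slc7a11: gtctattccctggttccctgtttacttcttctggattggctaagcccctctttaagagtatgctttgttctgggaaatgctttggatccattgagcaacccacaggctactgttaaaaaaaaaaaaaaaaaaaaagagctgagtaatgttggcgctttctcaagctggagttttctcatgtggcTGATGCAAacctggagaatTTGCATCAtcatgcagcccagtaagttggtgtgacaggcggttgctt
Slc7a8: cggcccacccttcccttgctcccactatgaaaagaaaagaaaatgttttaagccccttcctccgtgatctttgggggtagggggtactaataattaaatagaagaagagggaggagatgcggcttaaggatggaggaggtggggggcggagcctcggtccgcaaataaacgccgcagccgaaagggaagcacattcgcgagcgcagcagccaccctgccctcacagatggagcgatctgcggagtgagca
Slc3a2: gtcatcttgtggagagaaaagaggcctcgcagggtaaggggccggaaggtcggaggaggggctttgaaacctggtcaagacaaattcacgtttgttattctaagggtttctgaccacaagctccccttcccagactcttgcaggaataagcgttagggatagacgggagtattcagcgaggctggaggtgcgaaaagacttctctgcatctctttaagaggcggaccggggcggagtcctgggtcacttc
Slc7a7: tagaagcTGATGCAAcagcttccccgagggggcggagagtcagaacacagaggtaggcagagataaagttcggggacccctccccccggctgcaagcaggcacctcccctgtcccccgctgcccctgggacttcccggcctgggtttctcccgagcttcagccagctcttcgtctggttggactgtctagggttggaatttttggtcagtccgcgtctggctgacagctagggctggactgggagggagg

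Slc7a11 held the element in both directions, 66 to 59 bases before the start on its own strand and 47 to 40 bases before it on the other. Slc7a7, which fell, held it 243 to 236 bases before the start shown and 141 to 134 bases before another of its starts. Its 3 other listed windows held no match. The listed windows of Slc7a8 and Slc3a2 did not hold these letters. The window of Slc3a2 lies inside the gene's span, as do those of Slc7a11 and Slc7a7. Bases before the outer end of these genes were thus not searched. Of the 29 tested members 20 had a listed promoter, and Slc7a11 and Slc7a7 were the 2 with TGATGNAA, against 3.91% of the 27025 genes in the RefSeq table, each counted once over all its starts (3.45% of 32851 single promoters). TGACNNNGC, the core of the antioxidant response element bound by NRF2, was found in 5 of the 20 (1 that rose, 1 that fell and 3 that did not pass), against 11.5% of all genes (10.2% of single promoters), and not in the 4 windows shown. No matches of the different motifs overlapped in these promoters. Such a match describes letters and not binding. The shares over all genes were not matched to the members on expression, gene type or number of starts.

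Among carriers grouped here under serine and glycine, which leave out Slc7a8, the abundant importers moved by small amounts in different directions. Slc1a5 (Entrez 20514, chromosome 7, 16781334 to 16798274), which exchanges alanine, serine, cysteine and glutamine, had 54.1, 57.6, 57.0 and 54.6 CPM in serine/glycine-free libraries, against 62.0, 63.2, 64.1 and 63.9 CPM in control libraries. It fell without overlap (log2 change -0.18, SE 0.0382, adjusted p = 0.000192). Slc38a1, a sodium-coupled importer of glutamine and other small neutral amino acids, had 141, 140.0, 138 and 138 CPM in serine/glycine-free libraries, against 152, 148, 153 and 147 CPM in control libraries. It fell as well, also without overlap (log2 change -0.11, SE 0.0289, adjusted p = 0.00346). Slc38a2, which lies close by on chromosome 15, encodes a related carrier known in mammalian cells to be induced when amino acids are withdrawn. Slc38a2 had 129.9, 130.03, 127 and 129 CPM in serine/glycine-free libraries, against 122, 123, 121 and 122 CPM in control libraries. The groups were apart by a log2 change of 0.077 (SE 0.0295, adjusted p = 0.0416). This rise is the least firm of the 15: its adjusted p lay between 0.0121 and 0.363 over 18 alternatives, and it no longer passed in 6 of the 8 fits that each left out 1 library (adjusted p up to 0.095), with a replicate block (0.0859), with DESeq2 (0.095), with the deposited TPM (0.363) and with no filter (0.122).

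The remaining serine and glycine carriers did not pass. Slc1a4, a close relative of Slc1a5 for alanine, serine and cysteine, had 4.61, 5.05, 3.84 and 5.32 CPM in serine/glycine-free libraries, against 4.25, 4.52, 3.59 and 3.94 CPM in control libraries. The groups overlapped, and the 95% interval of its log2 change, -0.043 to 0.45, does not exclude a rise of the size seen for Slc3a2 (adjusted p = 0.205). Slc36a1, a proton-coupled carrier of glycine, proline and alanine, had 42.1, 44.7, 44.9 and 45.3 CPM in serine/glycine-free libraries, against 45.1, 47.1, 45.2 and 43.9 CPM in control libraries. Its groups overlapped too (log2 change -0.035, 95% interval -0.12 to 0.052, adjusted p = 0.578). The glycine transporter gene Slc6a9 was low, with 1.86, 1.72, 1.84 and 1.37 CPM in serine/glycine-free libraries, against 1.73, 1.65, 2.30 and 1.74 CPM in control libraries. No separation was seen, with control replicate 3 the highest (log2 change -0.13, 95% interval -0.50 to 0.25, adjusted p = 0.649). Summed over the 12 members of the group, TPM was 144 ± 4.02 in serine/glycine-free and 152 ± 2.06 in control macrophages. The direction rests on where Slc7a8 is placed: counted with them, the sum was 215 ± 7.55 TPM in serine/glycine-free and 192 ± 3.23 TPM in control macrophages.

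**Figure D5:**
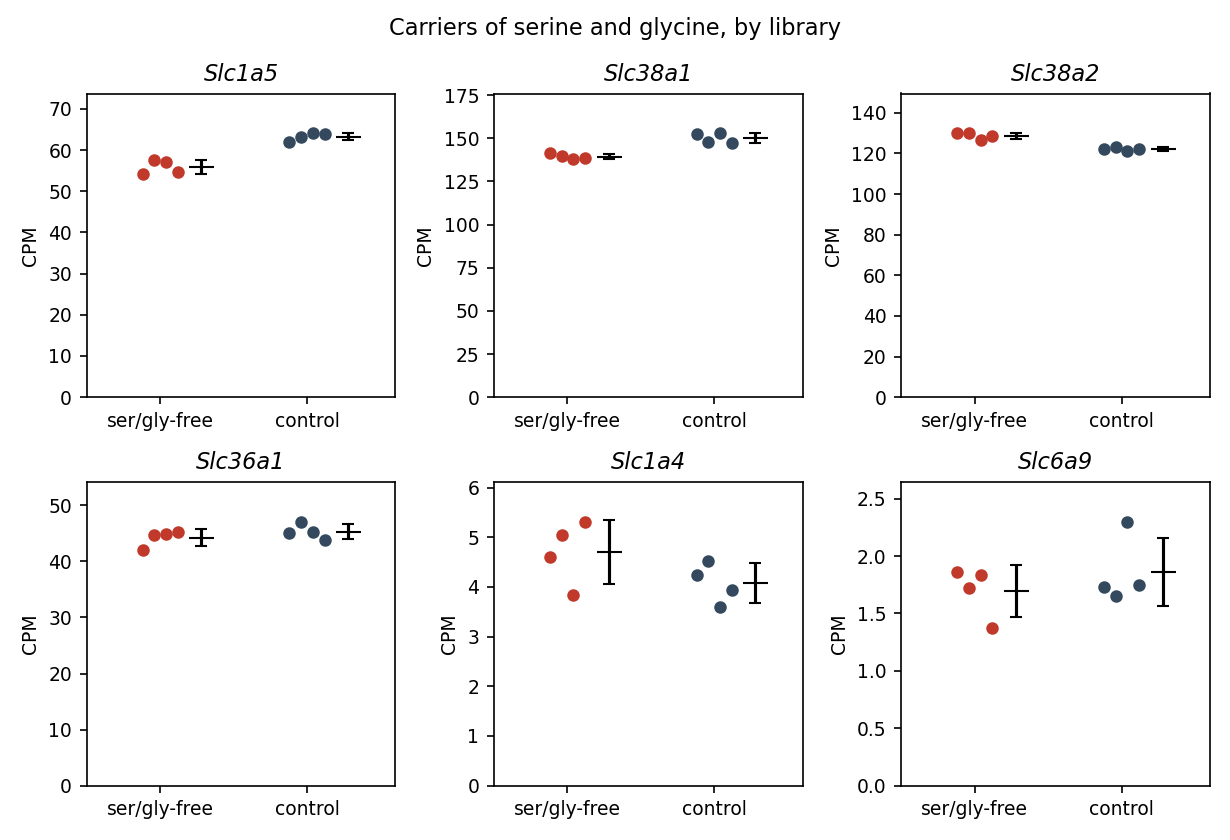
CPM of the 6 tested carriers of serine and glycine in each library (points), with mean and SD beside them, serine/glycine-free left and control right, each axis starting at 0. Slc1a5 and Slc38a1 are lower and Slc38a2 slightly higher in all 4 serine/glycine-free libraries, while Slc36a1, Slc1a4 and Slc6a9 overlap.

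Among the other large neutral carriers, Slc43a2, a facilitative carrier of branched-chain amino acids, phenylalanine and methionine, had 363, 375, 363 and 358 CPM in serine/glycine-free libraries, against 314, 327, 336 and 315 CPM in control libraries. It rose without overlap (log2 change 0.17, SE 0.0264, adjusted p = 6.76e-07). All 3 tested large neutral carriers (100%, against 33.2% of all tested genes) thus passed, Slc7a8 and Slc43a2 upward and Slc7a5 downward. As a group they summed to 188 ± 8.14 TPM in serine/glycine-free and 151 ± 4.94 TPM in control macrophages.

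Of 5 tested members grouped here as cationic carriers, 0 rose and Slc7a1 and Slc7a7 fell. Thus 40% passed, against 33.2% of all tested genes. Slc7a1, the widespread importer of arginine and lysine, had 52.1, 51.1, 52.3 and 51.4 CPM in serine/glycine-free libraries, against 57.1, 60.2, 56.9 and 60.8 CPM in control libraries. The groups did not overlap (log2 change -0.18, SE 0.0393, adjusted p = 0.000233). Slc7a2, the arginine importer known from activated macrophages, had 0.877, 0.832, 0.668 and 0.800 CPM in serine/glycine-free libraries, against 0.335, 0.496, 0.561 and 0.619 CPM in control libraries. Its libraries did not overlap, but it did not pass (log2 change 0.65, 95% interval 0.049 to 1.26, adjusted p = 0.0895), and it was the only tested member that met the filter on low counts through the serine/glycine-free group alone. Slc7a4 averaged 2.27 ± 0.299 CPM in serine/glycine-free and 2.26 ± 0.257 CPM in control macrophages (adjusted p = 0.98).

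Among the remaining Slc38 and Slc36 carriers, of glutamine and other amino acids, 5 were tested. Of these, 0 passed in either direction, against 33.2% of all tested genes. Their log2 changes lay between -0.044 for Slc36a4 and 0.029 for Slc38a6. Slc38a9, the lysosomal carrier that senses arginine for mTORC1, had 31.5, 27.2, 30.6 and 30.0 CPM in serine/glycine-free libraries, against 30.4, 29.8, 30.2 and 28.9 CPM in control libraries. Its groups overlapped, and the 95% interval of the log2 change was -0.10 to 0.10 (adjusted p = 0.993). Slc38a7, which releases glutamine and asparagine from lysosomes, averaged 68.8 ± 1.93 CPM in serine/glycine-free and 68.0 ± 2.11 CPM in control macrophages, and Slc38a10 128 ± 3.87 CPM in serine/glycine-free and 129 ± 2.28 CPM in control macrophages. The summed TPM of the 7 members was 145 ± 5.36 in serine/glycine-free and 148 ± 1.52 in control macrophages.

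Of 3 tested carriers of histidine and peptides, Slc15a3 rose and the other 2 did not pass. That is 33.3% passed, against 33.2% of all tested genes. Slc15a3 had 638, 657, 651 and 670 CPM in serine/glycine-free libraries, against 604, 607, 614 and 613 CPM in control libraries, and rose slightly without overlap (log2 change 0.10, SE 0.0233, adjusted p = 0.000603). Slc15a4, known for its part in endosomal Toll-like receptor signalling, had 63.7, 64.2, 62.5 and 66.1 CPM in serine/glycine-free libraries, against 66.8, 68.2, 67.2 and 68.4 CPM in control libraries. It did not pass although its libraries did not overlap (log2 change -0.077, adjusted p = 0.0989). Slc15a2 averaged 1.43 ± 0.461 CPM in serine/glycine-free and 1.09 ± 0.179 CPM in control macrophages (log2 change 0.38, 95% interval -0.091 to 0.86, adjusted p = 0.218).

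The family members that carry other compounds held the second largest rise. Slc6a8 (Entrez 102857, chromosome X, 73673133 to 73682502), the importer of creatine, a compound that cells make from glycine and arginine, had 80.3, 80.7, 82.1 and 83.2 CPM in serine/glycine-free libraries, against 48.8, 52.6, 48.5 and 44.6 CPM in control libraries. Every serine/glycine-free library was higher (log2 change 0.75, SE 0.0405, adjusted p = 2.36e-19). The taurine carrier gene Slc6a6 moved the other way, with 863, 880, 839 and 852 CPM in serine/glycine-free libraries, against 969, 991, 999 and 968 CPM in control libraries (log2 change -0.19, SE 0.0228, adjusted p = 2.78e-09). Its groups did not overlap either. Slc6a12, which carries betaine and GABA, had 45.1, 43.7, 44.2 and 45.6 CPM in serine/glycine-free libraries, against 40.5, 36.8, 37.9 and 38.5 CPM in control libraries. It rose without overlap (log2 change 0.22, SE 0.0438, adjusted p = 0.000109), while the nearby Slc6a13 on chromosome 6, a GABA carrier gene, averaged 3.63 ± 0.356 CPM in serine/glycine-free and 3.27 ± 0.662 CPM in control macrophages and did not pass (adjusted p = 0.455). Slc43a3, a purine base carrier despite its family, had 26.6, 25.4, 24.7 and 27.1 CPM in serine/glycine-free libraries, against 19.7, 20.4, 21.8 and 21.2 CPM in control libraries, and rose (log2 change 0.32, SE 0.0554, adjusted p = 8.74e-06).

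The 30 members that were not tested had few counts. In 20 of them no library had more than 3 counts. The highest total was that of Slc6a19, a kidney and gut importer of neutral amino acids, with 43 counts over the serine/glycine-free and 23 over the control libraries. All 5 acidic amino acid carriers of the Slc1 family were among them, with Slc1a3 at 28 counts in serine/glycine-free and 26 in control libraries and Slc1a2 at 20 in serine/glycine-free and 12 in control libraries. The heavy chain Slc3a1 had 5.37 counts in serine/glycine-free and 0 in control libraries, so Slc3a2 was the only heavy chain above the floor of 3 counts per library. The vesicular carrier Slc32a1 had 11 counts in serine/glycine-free and 8 in control libraries.

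Across libraries, the slope of each library's deviation from the gene means on gene length ran from -0.053 to 0.0015 (log2 units per doubling of length) in the serine/glycine-free and from 0.0025 to 0.039 in the control group, and so moved with the groups. With each library's trend removed, all 15 calls were kept, and Slc15a4 passed as lower in addition (log2 change -0.10, adjusted p = 0.0184). Slc15a4 also passed as lower with limma on the deposited TPM (-0.11, adjusted p = 0.0259). Its adjusted p lay between 0.0184 and 0.231 over 18 alternatives.

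Amino acid carriers of other families passed about as often as genes in general. All 13 were tested: 2 rose, 2 fell and the other 9 did not pass, so 30.8% passed, against 33.2% of all tested genes. Their median size of change was 0.11, against 0.10 over all tested genes. Over the alternatives 1 to 3 rose and 2 or 3 fell. Mfsd12, needed for cysteine import into lysosomes, averaged 163 ± 10.2 CPM in serine/glycine-free and 139 ± 5.92 CPM in control macrophages (SD, n = 4; log2 change 0.23, adjusted p = 4.84e-05), and Slc25a13, a mitochondrial aspartate and glutamate carrier, rose too (0.15, adjusted p = 0.0287). Slc25a38, the mitochondrial glycine carrier, fell (-0.22, adjusted p = 0.00435), as did the glutamate carrier Slc25a22 (-0.19, adjusted p = 0.00124). Sfxn1, the mitochondrial serine carrier, stood at 0.020 (adjusted p = 0.766) and the aromatic amino acid carrier Slc16a10 at 0.026 (adjusted p = 0.506).

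Genes of the amino acid response and of NRF2 are given beside the transporters. A link between these pathways and any transporter, risen or fallen, was not tested. The amino acid response list held 13 genes, all tested: 5 rose, 2 fell and the other 6 missed the threshold. That is 53.8% passed, against 33.2% of all tested genes (15.9% higher, 17.3% lower). Those that rose were Atf5 (log2 change 0.39), Atf3 (0.25), Cebpb (0.22), Atf4 (0.20) and Asns (0.16). Those that fell were Ddit4 (-0.49) and Sesn2 (-0.29), both restraints on mTORC1. The ones that missed were Trib3 (0.19, adjusted p = 0.288), Chac1 (0.19, 0.499), Ddit3 (0.12, 0.0678), Nupr1 (0.13, 0.326), Vldlr (0.10, 0.298) and Eif2ak4 (0.084, 0.244). Of 9 tested genes of glutathione synthesis and NRF2, 6 rose and 0 fell, so 66.7% passed, against the same 33.2%. They were Gclm (1.12), Txnrd1 (0.42), Gclc (0.28), Gpx4 (0.26), Gsr (0.16) and Nfe2l2 (0.12), while Gss (0.044, adjusted p = 0.661), Cth (-0.12, adjusted p = 0.542) and Ggt5 (0.071, adjusted p = 0.876) did not pass.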

How the data were processed

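Total RNA (Trizol) went into oligo-dT libraries, per the labels' protocols. The submitters' processing notes list BWA, Bowtie2, RSEM and GRCm38.p6; their versions and settings: not given in the sources used here. A deposited table by the authors holds estimated counts, FPKM and TPM per library. Estimated counts deposited by the authors were rounded to whole numbers for all tests; 8.06% to 8.47% of values per library were not whole (tolerance 1e-06). TPM, by the authors, gave levels between genes and 1 alternative test. FPKM, by the authors, gave gene lengths. The authors' group means were not used.

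The edgeR filter on low counts (10 per library, 15 in total) left 11700 genes, scaled by TMM. The test was that of edgeR 4.0.16 under R 4.3.3 (robust quasi-likelihood F test, Benjamini-Hochberg adjustment over all genes tested, threshold 0.05). SE comes from the F statistic. Within groups, chi-square per degree of freedom between libraries was 1.42 to 3.60, so none was counted as a copy.

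Members, substrate groups, lists and tests were chosen with earlier results of these data known. Per-library values were given for members past the threshold at 5 CPM or more and for 20 set carriers, of which Slc7a10 was not analysed here. Promoters and coordinates are RefSeq's, on GRCm38.p6. Alternatives were other size factors, filters, DESeq2 1.42.0, limma 3.58.1 (voom, and log2 of TPM + 1), a replicate block, a stricter threshold, length-trend removal and leaving out each library. The edgeR, DESeq2 and limma-voom fits, the replicate block and length-trend removal were run on simulated counts, with outcomes not reported here. The other steps, among them the TPM test and the promoter search, were not.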

Additional observations from a re-analysis of the deposited data

Results flagged for a closer look

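The 22 members with values by library were screened for a library far from the other 3 of its group, in 44 groups of 4, by Dixon's criterion at 95%. Chance flags about 1 in 20 groups. For Slc7a7, control replicate 1 stood at 67.9 CPM, against 62.4 to 62.6 CPM in the other control libraries. Without it the gene was still lower in the serine/glycine-free group (log2 change -0.14, adjusted p = 0.00568; over all alternatives adjusted p lay between 2.37e-06 and 0.00568). For Slc6a9, which did not pass, control replicate 3 stood at 2.30 CPM, against 1.65 to 1.74 CPM in the others. No cause of either was tested.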

How the results depend on the processing

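Over 18 alternative fits, 8 to 10 members rose, 6 or 7 fell and 14 to 16 passed in all, while calls over all genes ran from 2767 to 3967. Leaving out 1 library gave 8 to 10, 6 and 14 to 16 members, and 3384 to 3760 calls. Under each alternative 14 or 15 of the 15 calls were kept, and the 1 lost was Slc38a2. Slc38a9, at 0.0009, changed sign with RLE size factors (-0.0012), no filter (-0.0078), the replicate block (-1e-04), DESeq2 (-0.0013), limma-voom (-0.001) and TPM (-0.022), and lay between -0.025 and 0.042 with a library left out; Slc7a6 lay between -0.030 and 0.0012. None of these passed. In an alternative chosen after seeing the data, Slc7a8 was counted with the serine and glycine carriers, and their summed TPM, serine/glycine-free minus control, became 23.5 in place of -8.09. Libraries with the same replicate number did not deviate together (correlations -0.094 to 0.061, and 1 of 4 libraries in each group was closest to its own number). Such correlations cannot tell whether these libraries came from a shared culture or animal, which the labels do not say. With the replicate as a block 14 members passed, against 15 without it, and 3655 genes in all. Slc1a4, Slc6a9 and Slc7a2 have no value under the filter of 5 CPM. Depth limits the low members, whose intervals are wide.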
